A study of Mus musculus with 2 samples.

Results

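Barcodes rich in muscle fibre transcripts were described in the single-cell library of quiescent satellite cells (QSCs) from uninjured muscle. A barcode marks the transcripts caught in 1 droplet. A barcode counted as a fibre barcode when it had at least 500 detected genes, at most 10% of its unique molecular identifiers (UMIs, 1 per captured transcript) from the 13 genes of the mitochondrial genome, and at least 5% from the sum of 10 fibre genes: Myf6, Myh4, Acta1, Ckm, Mylpf, Tnnt3, Tnnc2, Myh1, Pvalb and Atp2a1. These 10 are called rule genes here. The rule found 104 fibre barcodes among the 516 QSC barcodes that met the gene and mitochondrial limits, a share of 20.2% (exact 95% interval 16.8 to 23.9). Both libraries together held 1984 such kept barcodes of 2416 deposited. Because measured values chose the fibre barcodes, everything below describes them and nothing is tested.

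Both libraries came from mice of genotype Pax7 CreERT2/+ ;Rosa26 mTmG/+ aged 8 weeks, in which Cre expressed from Pax7 marks satellite cells, the stem cells of muscle, with a reporter. Cells of the tibialis anterior muscle were released with dispase and collagenase, strained and sorted. The QSC library was made from uninjured muscle and the ASC library, of activated satellite cells, from muscle taken 1.5 days after cardiotoxin, which destroys fibres, and cells of several mice were pooled for each. Each group had 1 library, so no difference below has a replicate check, library and injury cannot be told apart, and every interval covers counting error only. The deposited QSC matrix has 766 barcodes and 1346020 UMIs in all, and the ASC matrix 1650 barcodes and 9059807 UMIs. Doublets were not removed. The libraries had 4 barcode sequences in common, of which 1 was a fibre barcode in both; leaving these out was tried for the list medians, the main values and the named gene ratios, and moved none of them beyond counting error.

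A muscle fibre is a long multinucleate cell packed with sarcomeres, in which thick filaments of myosin slide along thin filaments of actin anchored at Z-discs. Calcium released at the triad, where surface tubules meet the sarcoplasmic reticulum, starts contraction by binding troponin. Mouse limb fibres are typed by their myosin heavy chain: Myh4 marks the fastest and most glycolytic type (2B), Myh1 the intermediate fast type (2X), Myh2 the fast oxidative type (2A) and Myh7 the slow type. Fibres are far larger than the cells a droplet can hold, and satellite cells lie on their surface.

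The 3 fast myosin genes lie next to each other on the forward strand of chromosome 11, and their mix differed between fibre barcodes, as described further on. The last 120 bases before the start site of each gene are shown so that the sequences in front of these neighbours can be compared. They come from RefSeq on the GRCm38.p6 assembly, at chr11:67170907-67171026 for Myh2, chr11:67199982-67200101 for Myh1 and chr11:67237692-67237811 for Myh4. Capitals mark TATAAA, the letters of a TATA box, and TTTTGCCA, the longest run of letters that all 3 windows shared.
Myh2: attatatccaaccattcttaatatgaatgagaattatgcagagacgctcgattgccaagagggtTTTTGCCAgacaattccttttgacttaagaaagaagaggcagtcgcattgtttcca
Myh1: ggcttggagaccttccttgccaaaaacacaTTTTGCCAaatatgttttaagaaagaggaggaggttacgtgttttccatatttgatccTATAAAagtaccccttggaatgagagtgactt
Myh4: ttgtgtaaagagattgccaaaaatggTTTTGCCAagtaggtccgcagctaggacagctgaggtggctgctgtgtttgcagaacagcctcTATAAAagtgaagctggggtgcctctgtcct

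Counted back from the start site, TATAAA began at -32 in Myh1 and at -31 in Myh4, and these letters were not in the Myh2 window. The shared run began at -56 in Myh2, at -90 in Myh1 and at -94 in Myh4. The E-box letters CANNTG occurred only in the Myh4 window, as CAGCTG at -67. Of the 32851 windows of this length in the RefSeq table, searched on both strands, 6.34% held TATAAA, 0.387% the shared run, 6.76% CAGCTG and 40.2% any CANNTG. These matches are a description of letters.

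The label was checked against 5 fibre markers, of which only Myh1 is a rule gene. Tcap (chromosome 11, 98383811 to 98384953), which encodes telethonin at the end of titin in the Z-disc, had UMIs in all 104 fibre barcodes, from 2 to 181 with a median of 19. Trdn (chromosome 10, 33080554 to 33476709), the triadin gene of the calcium release complex, had 282 UMIs in 88 of them. Neb (chromosome 2, 52136647 to 52378474), the nebulin gene of the thin filament, had 128 in 64, Pdk4, a kinase that slows the entry of carbohydrate into mitochondria, 92 in 48, and Myh1 194 in 56. Genes annotated at the same place as Trdn and Neb include some on the same strand, so part of their counts is uncertain. The 4 markers outside the rule were therefore present, and for each the share of fibre barcodes with a UMI stood above that of the other kept QSC barcodes. The Myh1 values follow from the rule and do not bear on the label. After each barcode was thinned to 1000 UMIs, Trdn was found in 71.2% of fibre barcodes against 4.70% of the 404 other QSC barcodes deep enough, Neb in 45.2% against 1.98%, Myh1 in 46.2% against 9.65% and Pdk4 in 28.8% against 6.19%. All 104 fibre barcodes reached 1000 UMIs, and 8 other barcodes were left out. Without thinning, Trdn was found in 84.6% of fibre barcodes and 10.2% of the others. Tcap behaved otherwise, with 100% of fibre barcodes but also 73.0% of the others. Pdk4 has a limit too. At 1000 UMIs it was found in a smaller share of the ASC barcodes chosen by this rule, given further on, than of the other QSC barcodes. By itself it therefore does not mark the fibre barcodes of both libraries.

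Markers of other cells were close to absent. The 19 satellite cell genes other than Des, which fibres also make, had 46 UMIs in 39 fibre barcodes and at most 2 in any of them, against 5469 UMIs and a median of 11.5 in the other QSC barcodes. Of its defining genes, Pax7 and Myf5 had 2 UMIs each and Calcr had 0. The 14 macrophage and monocyte genes had 27 UMIs in 23 fibre barcodes, the 14 fibro-adipogenic genes 61 in 46, the 10 endothelial genes 4 in 2 and the 17 genes of nerve and tendon junctions 31 in 23, with at most 4 UMIs of any list in a barcode. Pecam1, the endothelial adhesion molecule, and the 8 lymphocyte genes were at 0, Ptprc, the pan-leukocyte antigen, had 2 UMIs and Pdgfra, the receptor of fibro-adipogenic cells, 1. Neutrophil, tenocyte, pericyte and Schwann cell lists had 6, 8, 6 and 1 UMIs, and haemoglobin genes 16. The shares these lists had in each result below were not tested.

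The rule share of the fibre barcodes ran from 7.04% to 26.9% with a median of 16.8%, whereas the other QSC barcodes stopped at 3.81%. The lowest fibre barcodes lay at 7.04%, 8.73% and 9.20% and the highest others at 3.81%, 3.32% and 3.31%, so no barcode lay between 3.81% and 7.04%. The fibre barcodes were shallower, with 1004 to 10167 UMIs (median 1635) and a median of 678.5 genes, against medians of 2216.5 UMIs and 977 genes. Their mitochondrial share was 0.234% to 3.10% (median 0.719%), against a median of 4.81%. The 5 deepest fibre barcodes held 14.7% of all their UMIs. Under a mitochondrial limit of 1%, 85 of the 86 QSC barcodes left were fibre barcodes.

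**Figure D1:**
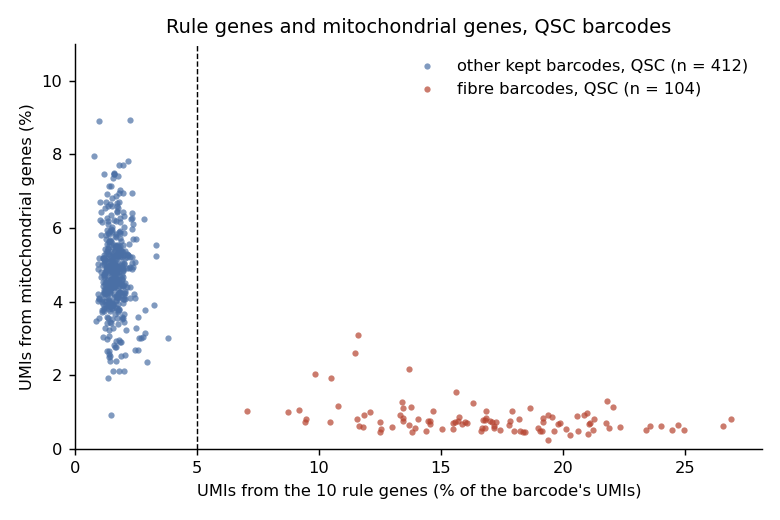
Percent of UMIs from the 10 rule genes against percent from the 13 mitochondrial genes, with a point for each of the 516 kept QSC barcodes and a dashed line at the 5% limit. The 104 fibre barcodes lie between 7.04% and 26.9% on the rule axis and at or below 3.10% on the mitochondrial axis, and the other 412 lie at or below 3.81% on the rule axis.

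Genes of 4 kinds outside the rule differed in median share between fibre and other QSC barcodes. Transcripts of the respiratory chain that are made from nuclear genes took 5.73% to 21.2% of the UMIs of a fibre barcode (median 12.98%) and 1.59% to 5.42% of those of another QSC barcode (median 2.82%), so the groups did not overlap. Cytosolic ribosomal protein genes took 4.40% to 13.9% (median 7.96%) against 3.63% to 32.4% (median 21.6%). Malat1, a long RNA retained in the nucleus, took 0 to 14.1% (median 0.0652%) against 0.192% to 20.9% (median 6.42%). Immediate-early genes, which answer stimulation within minutes, took 0 to 2.91% (median 0.118%) against 0.135% to 10.8% (median 3.44%). For ribosomal proteins, Malat1 and immediate-early genes the ranges overlapped. In the fibre barcodes of the ASC library, chosen by the same rule (939 of 1468 kept, 64.0%), the medians were 7.30% for the respiratory chain, 13.04% for ribosomal proteins and 0 for Malat1.

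**Figure D2:**
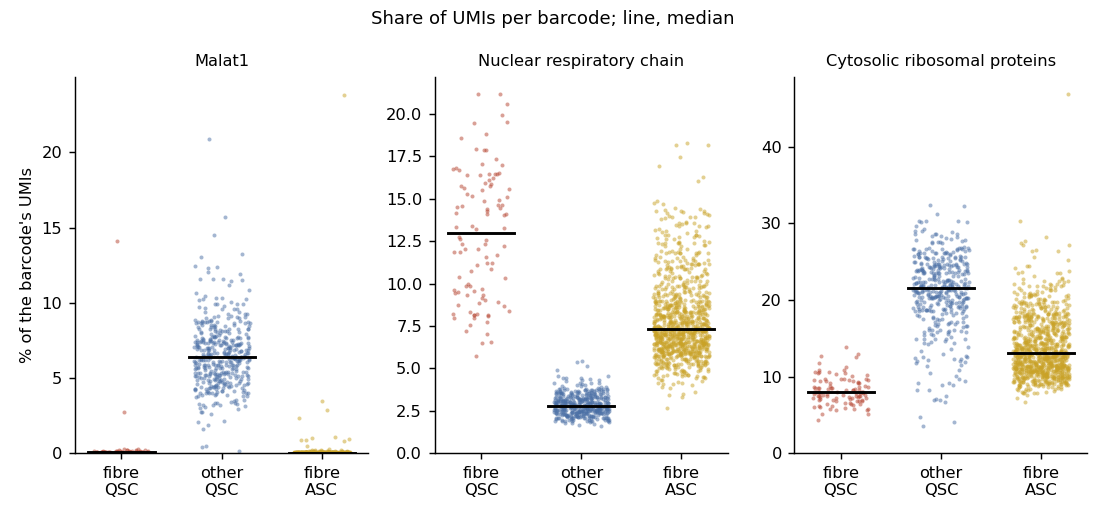
Percent of each barcode's UMIs from Malat1, from nuclear genes of the respiratory chain and from cytosolic ribosomal protein genes, with a point per barcode and a line at the median, for fibre QSC barcodes (n = 104), other QSC barcodes (n = 412) and fibre ASC barcodes (n = 939). The respiratory chain medians are 12.98%, 2.82% and 7.30%, and the Malat1 medians 0.0652%, 6.42% and 0.

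Malat1 was uneven among the fibre barcodes. It had 482 UMIs in 72 of them, and 352 of these lay in 2 barcodes: 263 of 1863 UMIs in the richest (14.1%) and 89 of 3262 in the next (2.73%). The richest took 9.82% of its UMIs from rule genes and 2.04% from the mitochondrial genome, and the next, with a mitochondrial share of 3.10%, also had 95 UMIs of immediate-early genes (2.91%). The other 102 fibre barcodes had at most 0.265% Malat1. Their summed level was 621 CPM (UMIs per 1e6 summed UMIs, 519 to 737), beside 541 CPM (515 to 568) in fibre ASC barcodes and 63720 CPM in other QSC barcodes, where 409 of 412 took over 1% of their UMIs from it.

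Levels were next expressed as CPM over the summed 214486 UMIs of the fibre barcodes, in which 7844 genes were detected. Captured 3' ends were counted, so these values were not adjusted for transcript length. The 20 genes with most UMIs took 32.2% of them, and 6 of these were rule genes. Acta1, the skeletal muscle actin, stood at 54722 CPM and Tnnc2, the calcium sensor of fast troponin, at 37546 CPM. Of the thin filament, Tpm1, a tropomyosin, stood at 27303 CPM, the fast troponin T gene Tnnt3 at 23428 CPM, the troponin inhibitor gene Tnni2 at 11945 CPM and Tpm2 at 8798 CPM. The light chains of fast myosin, Myl1 and Mylpf, stood at 25685 CPM and 20402 CPM. Among metabolic genes were Ckm, the creatine kinase that buffers ATP, at 17586 CPM, the glycolytic enzymes Aldoa (18873 CPM), Gapdh (8001 CPM), Eno3 (6140 CPM) and Pgam2 (5348 CPM), and the ADP and ATP carrier Slc25a4 at 10998 CPM. Tcap at 11637 CPM, the calcium buffer Pvalb at 9339 CPM, the oxygen store Mb (myoglobin) at 5823 CPM, Selenow, a selenoprotein, at 6989 CPM, Fth1, the ferritin heavy chain, at 6280 CPM and Atp5g1, a rotor subunit of ATP synthase, at 4667 CPM made up the rest. Aldoa, Gapdh and the ribosomal protein genes have many near-identical pseudogenes, so their counts are less certain.

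Against the other QSC barcodes, 2330 genes with a mean of at least 50 CPM were compared. Of these, 723 were at least 2-fold higher in the fibre barcodes (31%) and 850 at least 2-fold lower (36.5%), with a median log2 ratio of -0.08 and 59 genes at 0 UMIs in the fibre barcodes. Scaling by trimmed means (TMM) moved the median to 0.11, and leaving the rule genes out of the CPM moved it to 0.25. Counts of a list below are to be read against these percentages, and the rule chose barcodes on this contrast. The rule genes had to be higher and were left out of each list's count and median. A gene that is scarce in one group passes the CPM limit only through the group where it is high, so its direction is fixed by the limit. Counts over genes at 50 CPM or more in both groups are therefore also given for the lists this touches most.

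Most contractile genes that passed were higher. Of the thick filament list, 7 of 7 genes that passed the CPM limit were at least 2-fold higher (median log2 ratio 3.48), including Mybpc2, the fast myosin-binding protein C, at 3.38 (2.97 to 3.81). Of the thin filament list 10 of 11 were higher (median 3.58), led by Lmod3, which nucleates thin filaments, at 4.50 (3.40 to 5.99). The gene of this list that went the other way was Tpm3, another tropomyosin gene, with 1 UMI and a log2 ratio of -5.75 (-11.64 to -3.85). Of the Z-disc list 20 of 22 were higher and 1 lower (median 2.98). Ankrd23, a titin partner, stood at 3.83 and Csrp3, a Z-disc strain sensor, at 4.14, but desmin (Des) reached only 1.54 (1.38 to 1.70). Of the triad list 10 of 12 were higher (median 2.80), with Trdn at 4.75 (4.31 to 5.24) and calsequestrin (Casq1) at 3.46. The fast calcium pump Atp2a1, at 3.26, is a rule gene that had to be higher and is outside this count. Over genes at 50 CPM or more in both groups, 3 of 3 were higher for the thick filament, 4 of 4 for the thin filament, 10 of 11 for the Z-disc and 2 of 4 for the triad. The sarcolemma list was mixed, with 3 of 5 higher and 1 lower: Cavin4, a caveolar protein of muscle, stood at 4.42 (3.23 to 6.06) and dystroglycan (Dag1), with 2 UMIs, at -4.81 (-8.18 to -3.26).

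Fuel genes followed the same direction. All 18 genes of glycolysis and glycogen that passed were higher (median 2.81), from the isomerase Gpi1 at 1.21 to Phkg1, which activates glycogen breakdown, at 4.02, with Pkm, the last glycolytic step, at 1.23 (1.03 to 1.42) and Eno3 at 3.56. All 5 genes of phosphate buffering were higher (median 3.80), with the mitochondrial creatine kinase Ckmt2 at 4.05 (3.44 to 4.76) and Art1, an ADP-ribosyltransferase, at 4.33. Of the oxidative and lipid fuel list 8 of 13 were higher and 1 lower (median 2.49), with myoglobin at 3.94 (3.77 to 4.12) and Fabp3, the fatty acid carrier of heart and muscle, at 3.89 (3.50 to 4.31). Of the nuclear respiratory chain genes 71 of 79 were higher and 2 lower (median 2.06). Over genes at 50 CPM or more in both groups, 12 of 12 were higher for glycolysis and glycogen, 3 of 3 for phosphate buffering, 7 of 9 for oxidative and lipid fuel and, as before, 71 of 79 for the respiratory chain.

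The 12 passing genes of the mitochondrial genome itself were all at least 2-fold lower (median -2.76), as were the 9 that reached 50 CPM in both groups, with mt-Co3, a subunit of complex IV, at -2.16 (-2.27 to -2.05). The rule capped their summed share at 10% in both groups. Thus nuclear and mitochondrial transcripts of the same complexes stood on opposite sides of the median gene in the fibre barcodes.

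Where a gene has a muscle form and a general form, the muscle form prevailed in fibre barcodes. Complex IV has subunits with a muscle form and a general form, and the muscle form Cox6a2 held 98.6% of the UMIs of Cox6a2 and Cox6a1 (845 and 12 UMIs) in fibre barcodes against 31.8% in the others. The corresponding shares were 93.6% and 21.0% for Cox8b over Cox8a and 73.6% and 30.0% for Cox7a1 over Cox7a2. These were also the highest of the list against other barcodes, with log2 ratios of 4.21 for Cox8b, 4.08 for Cox6a2 and 4.03 for Cox7a1, while Cox6a1 and Cox8a were the 2 lower genes, at -3.10 and -1.57. Enolase, the ADP and ATP carrier, and the alkali light chain showed the same split, at 99.4% for Eno3 against 66.5%, 99.4% for Slc25a4 over Slc25a5 against 72.8% and 99.6% for Myl1 over Myl6 against 76.8%. Atp2a1, a rule gene, had 919 UMIs and Atp2a2, the slow calcium pump, 0. In fibre ASC barcodes the muscle form held 62.8% to 99.9% of the UMIs of a pair. Its share was lower there than in fibre QSC barcodes, with intervals that did not overlap, in 8 of the 12 pairs, including Cox7a1 at 62.8% (61.7 to 64.0, against 70.5 to 76.6) and Cox8b at 88.6% (87.8 to 89.3, against 91.9 to 95.1). The intervals overlapped for Cox6a2, Atp2a1, Ckm and Casq1. Acta1, which is among these 8, and Atp2a1 and Ckm are rule genes, so the rule bears on their shares. The pairs were chosen after values had been seen.

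Ribosomal protein genes showed such a pair as well. Of 80 that passed, 60 were at least 2-fold lower in fibre barcodes and 1 was higher (median -1.36). The higher gene was Rpl3l, the striated muscle form of the ribosomal protein uL3, with 109 UMIs in 61 fibre barcodes and a log2 ratio of 3.20, while the general form Rpl3 had 23 UMIs and a log2 ratio of -4.91. Both names were singled out after their values were seen.

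Genes of the stem cell and of its surroundings were lower. Of the satellite cell list 14 of the 15 genes that passed did so only through the other barcodes, so their direction was fixed, and the remaining gene, Des, was higher. Without Des the list summed to 214 CPM in fibre barcodes and 5771 CPM in the others. Sdc4, a syndecan of satellite cells, stood at -5.65 (-6.86 to -4.80). All 19 immediate-early genes that passed were lower (median -4.12), 11 of them at 50 CPM or more in both groups, with Fos at -4.96 (-5.38 to -4.59) and Junb at -4.27. Nuclear transcripts summed to 2354 CPM against 66565 CPM. Nearly all genes of the other cell lists that passed also did so only through the other barcodes, so their summed levels are given in place of counts: 126 CPM against 1968 CPM for macrophage and monocyte genes, 284 CPM against 9327 CPM for fibro-adipogenic genes, 27.97 CPM against 484 CPM for pericyte genes, 18.6 CPM against 218 CPM for endothelial genes and 51.3 CPM against 558 CPM for activated muscle cell genes. Myod1, the regulator of commitment, had 3 UMIs. Myog and Ncam1 had 0 UMIs.

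Of the chaperone list 8 of 17 were higher and 6 lower (median 0.34): the small heat shock genes Hspb6 at 4.10 (3.78 to 4.45), Hspb7 at 3.72 (3.21 to 4.28) and Cryab, the desmin chaperone, at 2.05 were higher, and Hspa8, the general chaperone, at -1.59 was lower. Hspb1, at 0.34 (-0.05 to 0.71), had an interval that included 0. Of the fasting and atrophy list 7 of 23 were higher and 9 lower (median -0.87), shares near those over all genes. Trim63, the ubiquitin ligase MuRF1 that degrades contractile proteins, stood at 3.90 (3.35 to 4.51) and Pdk4 at 2.42 (1.96 to 2.88), whereas the metallothionein genes Mt1 and Mt2 stood at -3.21 and -3.84. Of the transcription factors of fibres, Mef2c, a regulator of contractile genes, had 153 UMIs and a log2 ratio of 3.72 (3.26 to 4.22), and 2 of 8 that passed were higher and 1 lower. The polyamine and hypusine list had 2 higher and 3 lower of 9 (median -0.04), also near the shares over all genes. Amd1, which supplies the aminopropyl donor, stood at 2.08 (1.43 to 2.72) and the spermine synthase gene Sms at 1.44 (0.76 to 2.08). Mat2a, which makes the precursor of that donor from methionine, stood at -2.96 (-3.85 to -2.27), beside Eif5a at -0.59 (-0.93 to -0.27).

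**Figure D3:**
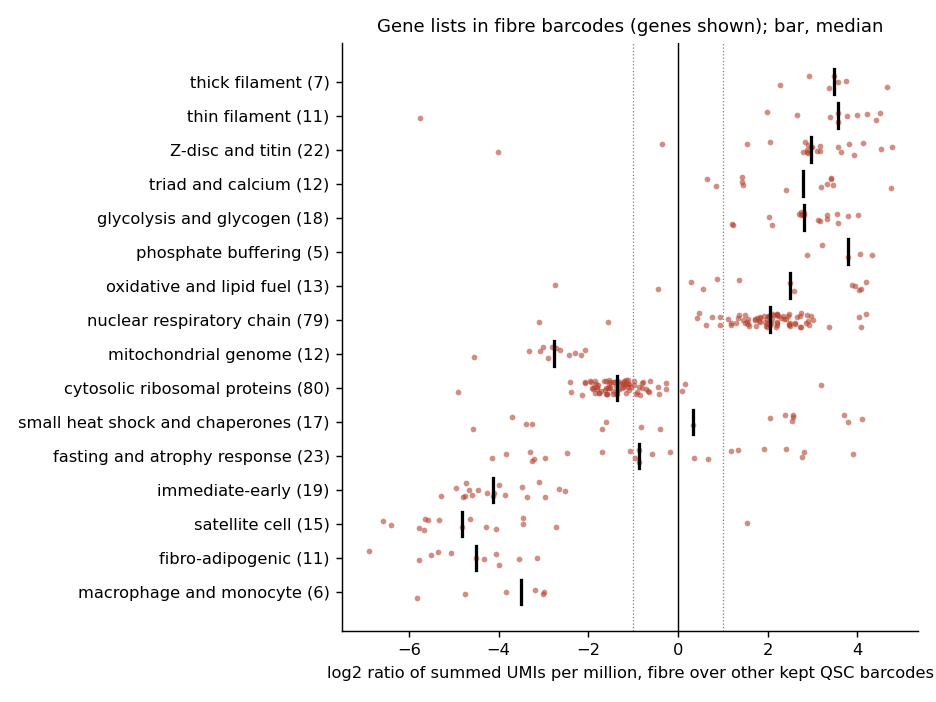
Log2 ratio of CPM, fibre QSC barcodes over other QSC barcodes, for each gene with a mean of at least 50 CPM in 16 gene lists, with a bar at the list median and dotted lines at 2-fold. Contractile, glycolytic, phosphate buffering, oxidative and lipid fuel and nuclear respiratory chain lists have medians from 2.06 to 3.80. The satellite cell, fibro-adipogenic and immediate-early lists have medians from -4.81 to -4.12. Of their genes, 14 of 15, 10 of 11 and 8 of 19 passed only through the other barcodes, so the limit fixed their direction. In the thick filament and triad lists, 4 of 7 and 8 of 12 passed only through the fibre barcodes.

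Among all genes with a mean of at least 100 CPM outside the rule and the mitochondrial genome, the highest ratios to other QSC barcodes belonged to 2310075C17Rik at 6.26 (4.63 to 9.66) and Gm12224 at 5.84 (4.41 to 8.38). The former is annotated as a long intergenic RNA (chromosome 9, 112227579 to 112228242, forward strand) opposite the gene Arpp21, with 43 UMIs in 20 fibre barcodes and 2 UMIs in the others. The latter is annotated as antisense to Acsl6 (chromosome 11, 54340369 to 54353479, reverse strand), with 45 UMIs in 35 fibre barcodes and 3 in the others. Next came Trdn, Myl3, the slow and ventricular light chain, at 4.66, Ankrd2, a titin-linked strain sensor, at 4.54, Tcea3, a transcription elongation factor, at 4.52 (340 UMIs in 94 fibre barcodes), Neb at 4.42, Art1, Ppp1r14c, an inhibitor of protein phosphatase 1, at 4.29 and Ndufaf5, an assembly factor of complex I, at 4.25. Myl3 had its 48 UMIs in 13 fibre barcodes only.

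The lowest ratios belonged to genes nearly missing from fibre barcodes. Col3a1, the type III collagen gene, had 2 UMIs against 1319, a log2 ratio of -6.90 (-10.27 to -5.37). Gas1, a surface protein of quiescent cells, and Cd9, a tetraspanin, had 1 UMI each, at -6.74 (-12.63 to -4.84) and -6.49 (-12.38 to -4.60). Camk2n1, an inhibitor of calmodulin kinase, and Wsb1, of a ubiquitin ligase, were at 0 and at least 19.6-fold and 18.7-fold lower, with 0 taken as 3 counts over all fibre barcodes. The protease Adamts1, the non-muscle tropomyosin Tpm4, the caveolin Cav1, Sbno2 and the tubulin Tubb2a were also at 0 and at least 14.6-fold lower.

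Fibre transcripts were also present at a low level in the other QSC barcodes, which took 1.59% of their summed UMIs from the rule genes. The share was 1.55% in the 306 barcodes with UMIs of satellite cell markers and 1.77% in the 38 with at least 2 macrophage UMIs. Per 1000 rule-gene UMIs, 32 of 42 fibre genes outside the rule with at least 100 UMIs lay within 2-fold of each other in fibre and other barcodes. Across the 50 genes compared, of which 8 are rule genes, the logarithms of both values had a Pearson correlation of 0.923. The rule genes also set the scale, and the correlation is a description over genes that share the same 2 summed profiles. The 3 genes scarcer in the others on this scale were Trdn (log2 ratio 1.34), Ankrd2 (1.13) and Neb (1.01), and the 7 that were more frequent there were Des, Pkm, Jsrp1, Cfl2, Ldha, Cryab and Pgk1. In the macrophage-marker barcodes at 1000 UMIs, Tcap was found in 78.9%, Myh1 in 10.5%, Trdn in 5.26% (2 of 38, 0.644 to 17.7) and Pdk4 in 2.63% (1 of 38, 0.0666 to 13.8), with a median of 2053.5 UMIs before thinning. These 38 are among the other QSC barcodes, whose shares of 4.70% for Trdn and 6.19% for Pdk4 lie within those intervals and are not read as expression. The shares of fibre barcodes lie above the intervals. Where these UMIs came from was not tested.

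How the fibre barcodes varied among themselves was measured per gene as the spread of counts over that expected from depth alone, where 1 is counting error. Over 321 genes with at least 100 UMIs the median spread was 1.41 (quartiles 1.22 and 1.79), and 60 genes were above 2. Malat1 came first with 167, carried by its richest barcode, followed by Tpm1 (15.0), Pvalb (10.5), Acta1 (9.21), Mb (8.53), Myl1 (7.10), Cryab (6.47), Aldoa (6.19), Fhl1 (5.87), a LIM protein of the sarcomere, and Myh1 (5.81). Pvalb, Acta1 and Myh1 are rule genes, and the 8 rule genes measured ran from 4.06 to 10.5. The rule share and the nuclear respiratory chain share had a Pearson correlation of -0.57 (Spearman -0.60) over the 104 fibre barcodes, as a description, since both are shares of the same total.

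Of the myosin heavy chains, Myh1 held 194 of 321 myosin heavy chain UMIs (60.4%, 54.9 to 65.8), Myh4 91 (28.3%, 23.5 to 33.6) and Myh2 36 (11.2%, 7.98 to 15.2). Myh7 had 0 of 321, with an exact interval up to 1.14%. At least 1 myosin heavy chain UMI was seen in 86 fibre barcodes. Myh1 alone was seen in 39 of these, Myh4 alone in 26 and Myh2 alone in 4. Another 10 had Myh1 with Myh4 and 8 Myh1 with Myh2, of which 1 had all 3. With a median of 2 myosin heavy chain UMIs per fibre barcode, a second type was often not detectable at this depth. The Myh2 value rested in part on 1 barcode with 18 of its 36 UMIs. Of the Myh1 UMIs, 25 lay in 1 barcode, an unevenness that the intervals leave out. Myh1 and Myh4 are rule genes, while Myh2 and Myh7 are not, so the rule bears on this mix. Without the 5 deepest barcodes Myh1 held 66.4% and Myh2 6.57%, and in the 10 fibre barcodes with at least 1000 genes Myh1 held 39.1% and Myh2 29.7%.

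In fibre ASC barcodes Myh4 stood before Myh1, with Myh4 at 73.0% of 3621 UMIs (71.5 to 74.5), Myh1 at 24.0% (22.6 to 25.4), Myh2 at 2.68% (2.18 to 3.26) and Myh7 at 0.304% (0.152 to 0.543). Thus Myh1 led in the uninjured library and Myh4 in the injured one, beyond counting error. Both are rule genes, so this order is read from values that chose the barcodes of both libraries. In the other QSC barcodes, Myh1 held 53.2% of 139 UMIs (44.6 to 61.7) and Myh4 37.4% (29.4 to 46.0).

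The fibre barcodes were then grouped by the myosin heavy chain with most UMIs, a grouping chosen after the mix had been seen. Myh4 led in 27 (60124 UMIs), Myh1 in 48 (97824 UMIs) and Myh2 in 6 (18678 UMIs, of which 10167 lay in 1 barcode), and 23 had none or a tie. A lead could rest on 1 UMI, since the median was 2 myosin heavy chain UMIs per fibre barcode. The groups are therefore not read as fibre types. The nuclear respiratory chain took 6.54% to 16.2% of UMIs where Myh4 led (median 8.71%), 5.73% to 21.2% where Myh1 led (median 14.9%) and 14.5% to 21.1% where Myh2 led (median 19.0%). Medians therefore rose in the order Myh4, Myh1, Myh2, although the ranges overlapped. The glycolysis list went the other way, with medians of 5.25%, 4.47% and 3.77%, and the oxidative and lipid fuel list the same way as the respiratory chain, with 1.08%, 2.65% and 4.26%. The slow fibre list took 0.00333%, 0.0940% and 0.444% of the summed UMIs. The median rule share also fell over these groups, at 20.1%, 14.6% and 12.7%. Rule share and respiratory chain share had a Pearson correlation of -0.57 over the fibre barcodes. What part the rule share had in these orders was not tested.

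Single genes differed between these groups too, with ranges that overlapped. Per 10000 UMIs, myoglobin had 0 to 55.0 UMIs where Myh4 led (median 7.27), 6.18 to 173 where Myh1 led (median 83.6) and 75.0 to 159 where Myh2 led (median 129). Pvalb, which speeds relaxation in the fastest fibres, had 8.61 to 242 (median 162), 0 to 139 (median 48.3) and 5.90 to 30.7 (median 13.6). Pvalb is a rule gene, as are Myh4 and Myh1, so this contrast is read from values that chose the barcodes. Actn3, the Z-disc actinin of fast glycolytic fibres, had medians of 46.8, 9.96 and 0. Where Myh2 led, no barcode had more than 30.7 for Pvalb, but 1 barcode where Myh1 led had 0, so these groups overlapped. Fhl1 had medians of 0, 24.9 and 49.3. Csrp3 had 1 UMI where Myh4 led, 54 UMIs in 22 barcodes where Myh1 led and 34 where Myh2 led, and Myl3 had 0, 11 and 34. Without the deepest barcode, the other 5 where Myh2 led stood at 11867 CPM of Mb, 7050 CPM of Fhl1, 1762 CPM of Csrp3, 1997 CPM of Pvalb and 0 UMIs of Actn3.

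**Figure D4:**
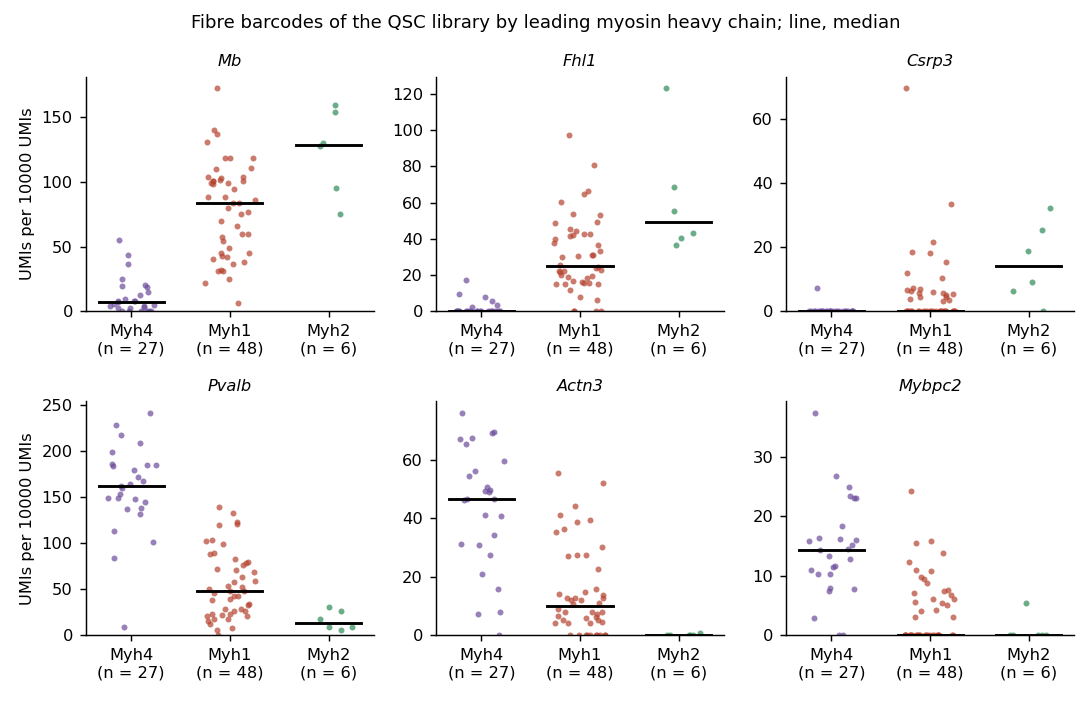
UMIs per 10000 of Mb, Fhl1, Csrp3, Pvalb, Actn3 and Mybpc2 in each fibre QSC barcode, grouped by the myosin heavy chain with most UMIs (Myh4, n = 27; Myh1, n = 48; Myh2, n = 6), with a line at the median. Median Mb is 7.27, 83.6 and 129 and median Pvalb 162, 48.3 and 13.6 in that order. Pvalb is a rule gene, as are Myh4 and Myh1.

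Over 315 genes with at least 100 UMIs, 32 were at least 2-fold higher where Myh1 led and 11 where Myh4 led. The median log2 ratio over these genes was 0.20, towards Myh1. The 10 highest were Csrp3 at a log2 ratio of 4.48, Fhl1 at 4.21, Ankrd2 at 4.05, Mb at 2.95, Malat1 at 2.94, Fabp3 at 2.02, the malate dehydrogenase Mdh1 at 1.70, the mitochondrial ribosomal protein gene Mrpl12 at 1.68, the thioesterase Acot13 at 1.67 and Hspb7 at 1.54. Both Malat1-rich barcodes were among those led by Myh1. Among the lowest were Mybpc2 at -1.71, Actn3 at -1.61, Pvalb at -1.58, Ddit4l, an inhibitor of mTORC1, at -1.57, the glycogen phosphorylase Pygm at -1.40, Trim63 at -1.21, the profilin Pfn2 at -1.14, the glucocorticoid-induced Tsc22d3 at -1.13 and the proton pump gene Atp6v1g1 at -1.05. In the ASC library, which did not serve to choose these genes, Mb stood at 2.40, Fhl1 at 1.41, Csrp3 at 1.31 and Ankrd2 at 0.71. Mdh1 stood there at 0.70, Fabp3 at 0.66, Hspb7 and Acot13 at 0.49 each, Mrpl12 at 0.24 and Malat1 at -0.55. Of the low genes named, Ddit4l at 0.22 (-0.02 to 0.46) and Pfn2 at -0.013 (-0.25 to 0.21) had intervals there that included 0. The others were lower by less than 2-fold, with Pvalb at -0.98. Pvalb is a rule gene, so the rule bears on its values in both libraries. How many of all genes lay on each side in the ASC library was not counted, so these values are not read as agreement.

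The fibre barcodes of both libraries were compared next, which sets fibre RNA of uninjured muscle beside that of muscle 1.5 days after cardiotoxin. Of 2016 genes with a mean of at least 50 CPM, 162 were at least 2-fold higher in the QSC library (8.04%) and 253 at least 2-fold lower (12.5%), with a median log2 ratio of -0.00. TMM scaling gave 122 higher and 324 lower and moved the median to -0.14. Both shares were smaller than the 31% and 36.5% found between fibre and other barcodes of the QSC library.

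Lists of structural genes went in different directions between the libraries. The rule genes, which chose both groups, ran from -1.36 for Myf6, the regulator of mature fibres, and -1.04 for Myh4 to 1.65 for Myh1. The 5 markers were higher in the QSC library: Pdk4 at 3.66 (3.24 to 4.08), Neb at 2.46 (2.15 to 2.75), Tcap at 1.81 (1.75 to 1.87), Trdn at 1.69 (1.49 to 1.87) and Myh1. Of the thick filament list 4 of 8 were at least 2-fold higher and 1 lower (median 0.98), including the myosin light chain kinase genes Mylk4 at 2.30 (1.58 to 2.94) and Mylk2 at 1.02. At 50 CPM or more in both groups 2 of 5 were higher and 0 lower. The list median was 0.13 between barcodes led by Myh1 in both libraries and 0.52 at a mitochondrial limit of 1%. Of the triad list 5 of 17 were higher and 2 lower (median 0.46), and 3 higher and 1 lower of the 14 at 50 CPM or more in both groups. Higher genes included Mrln, the micropeptide that restrains the calcium pump, at 1.81 (1.36 to 2.22) and Casq1 at 1.47 (1.08 to 1.83). The thin filament list had 2 higher and 3 lower of 13 (median -0.16) and the Z-disc list 4 higher and 7 lower of 25 (median 0.04). With 50 CPM or more in both groups, these were 2 higher and 1 lower of 11, and 2 higher and 6 lower of 21. The sarcolemma list had 0 higher and 4 lower of 6 (median -1.29), and 2 lower of the 4 at 50 CPM or more in both groups, with Cav3, the muscle caveolin, at -1.74 (-2.50 to -1.14) and Cavin4 at -1.13.

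Genes of oxidative energy supply had medians above 0, towards the QSC library, but mostly by less than 2-fold. Of the nuclear respiratory chain 7 of 79 were at least 2-fold higher and 0 lower (median 0.62), with Atp5j, a coupling subunit of ATP synthase, at 1.02 (0.91 to 1.11). The mitochondrial genome had 3 of 8 higher (median 0.76), with mt-Co3 at 1.87 (1.75 to 2.00). The oxidative and lipid fuel list had 1 of 11 higher (median 0.87), with Fabp3 at 1.35 (1.14 to 1.55) and Mb at 0.87 (0.78 to 0.95). The medians of the respiratory chain and of oxidative and lipid fuel were 0.27 and -0.18 between barcodes led by Myh4 and 0.47 and 0.74 between those led by Myh1. The summed share of the respiratory chain was 9.04% in QSC and 7.196% in ASC barcodes where Myh4 led, and 14.4% and 10.04% where Myh1 led. For oxidative and lipid fuel the shares were 1.17% and 1.01%, and 2.73% and 1.97%. Glycolysis had 2 higher and 1 lower of 18 (median -0.02). Ribosomal protein genes leaned the other way, with 0 higher and 27 lower of 81 (median -0.76).

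Of the fasting and atrophy list 6 of 20 were at least 2-fold higher in the QSC library and 3 lower (median 0.34). Among the 14 at 50 CPM or more in both groups, 3 were higher and 2 lower. Beside Pdk4, Cebpb and Cebpd, CCAAT-binding factors induced by stress hormones, stood at 1.21 (0.97 to 1.43) and 1.46 (0.96 to 1.90). Bnip3, a receptor of mitophagy, stood at 0.89 (0.48 to 1.27) and Trim63 at 0.29 (-0.01 to 0.55), an interval that included 0. The metallothionein genes Mt1 and Mt2 were lower, at -1.62 (-1.80 to -1.45) and -2.48 (-2.74 to -2.24). Pdk4 had 92 UMIs in 48 fibre QSC barcodes and 102 in 91 fibre ASC barcodes, and was found at 1000 UMIs in 28.8% and 3.56% of them. It stood at 3.74 in barcodes led by Myh4 and at 3.41 in those led by Myh1. Where Myh2 led, Pdk4 had 5 UMIs in each library, at 268 CPM and 68.7 CPM.

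The 10 highest ratios to fibre ASC barcodes were those of Pdk4, 2310075C17Rik at 2.53 (1.97 to 3.05), Neb, Myh2 at 2.39 (1.79 to 2.94), Gadd45g, a stress-induced growth arrest gene, at 2.27 (1.94 to 2.58), Apoe, a lipid carrier that macrophages also make, at 2.20 (1.76 to 2.61), Ramp1, a subunit of the CGRP receptor, at 2.19 (1.69 to 2.65), Malat1 at 2.05 (1.90 to 2.20), the RNA-binding zinc finger gene Zfp106 at 1.94 (1.50 to 2.34) and Fos at 1.88 (1.42 to 2.31). Some of these values rested on few barcodes. Without the 2 Malat1-rich barcodes Malat1 stood at 0.20 and Fos at 1.40. The macrophage list stood at 126 CPM in fibre QSC and 280 CPM in fibre ASC barcodes, and its part in the Apoe value was not tested. Immediate-early genes had 6 of 10 higher and 1 lower (median 1.15), and 3 higher and 0 lower of the 6 at 50 CPM or more in both groups. Of their 381 UMIs in fibre QSC barcodes, 95 and 18 lay in the 2 Malat1-rich barcodes.

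The lowest ratios belonged to genes that were scarce in uninjured fibre barcodes. Mt3, a metallothionein, had 0 UMIs against 1172 and was at least 27.9-fold lower. Ankrd1, a titin-linked protein induced by injury and stretch, had 12 UMIs in 2 fibre QSC barcodes and a log2 ratio of -5.15 (-6.16 to -4.41). Hspb1, the small heat shock protein of stressed muscle, had 76 UMIs in 44 barcodes against 18557 UMIs, at -4.11 (-4.47 to -3.80), and Mustn1, a small nuclear protein of musculoskeletal tissue, 108 UMIs, at -3.82 (-4.11 to -3.55). Tubb6, a tubulin of regenerating fibres, had 4 UMIs (-4.65), Rrad, a small GTPase, 5 (-4.51), Rgcc, a cell cycle regulator, 13 (-4.29), and Mybph, a myosin-binding protein, Serpinb1a, a protease inhibitor, and the chemokine Cxcl2 had 2 each, at -4.13 (-7.50 to -2.59), -4.08 (-7.45 to -2.55) and -4.07 (-7.44 to -2.53).

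Of the chaperone list 7 of 16 were at least 2-fold lower and 1 higher (median -0.98), and 4 lower of the 12 at 50 CPM or more in both groups, with Cryab at -2.96 (-3.10 to -2.82), Hspb8, its partner in protein quality control, at -2.52 (-2.98 to -2.12) and Hspb7 at -2.43 (-2.71 to -2.18). Of the Z-disc list, Csrp3 stood at -2.95 (-3.24 to -2.69) and Ankrd2 at -1.80 (-2.10 to -1.52), while Ankrd23 stood at 0.27 (0.17 to 0.36). The slow fibre list, which holds Csrp3, had 4 of 6 lower, 3 of which passed only through the ASC barcodes, and 1 higher (median -3.46), but this median turned to 0.58 when a rule share of at least 10% was asked for. Of the denervation list 4 genes passed, of which Sln, with 1 UMI, and Myog, with 0, did so only through the ASC barcodes, at 110 CPM and 135 CPM there, and Ankrd1 was the other low gene. In the polyamine and hypusine list 2 of 10 were lower and 0 higher (median -0.85), the enzyme gene Odc1 and its antizyme inhibitor Azin1. Among the 7 at 50 CPM or more in both groups, 1 was lower.

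**Figure D5:**
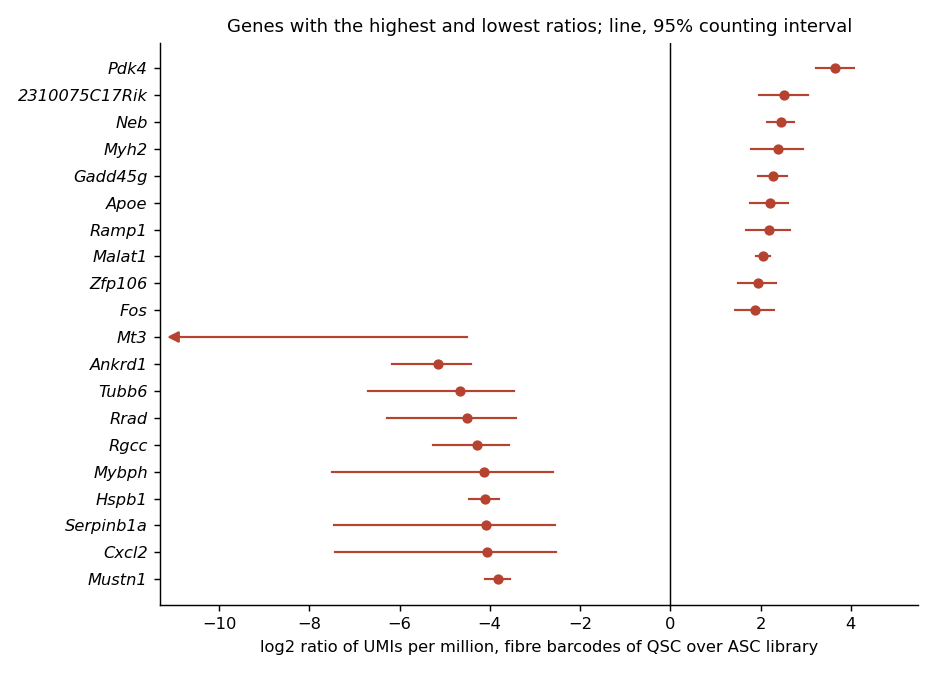
Log2 ratio of CPM, fibre QSC over fibre ASC barcodes, for the 10 highest and 10 lowest genes with a mean of at least 100 CPM, with bars for the exact 95% counting interval and an arrow for Mt3, which had 0 UMIs in fibre QSC barcodes. Values run from 3.66 for Pdk4 to -5.15 for Ankrd1, and no interval reaches 0.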

How the data were processed

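The authors prepared both libraries with 3' single-cell chemistry (10x Genomics, version 2) and deposited a matrix of raw UMI counts per gene and barcode. Per the file headers the counts came from Cell Ranger 6.0.2, whereas the labels name Cell Ranger 7.1.0, with Seurat 4.1.0 and R 4.1.2 for their analysis and mm10 as the genome build. The annotation release is not given in the sources used here. Of 32285 features, 32235 carry an identifier of GENCODE M21 (GRCm38), from which positions were taken, and 31502 also its symbol.

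Barcodes were filtered as stated, and UMIs were summed over the barcodes of a class and scaled to CPM (a sum of 1e6). Log2 ratios had 0.5 added to each count and carry exact conditional binomial 95% intervals, shares exact Clopper-Pearson intervals and levels exact Poisson intervals. Genes entered a comparison at a mean of 50 CPM and counted as higher or lower past 2-fold. For bounds on a fold, 3 counts stood in for a count of 0. Cells are not replicates, so no test was run. The fibre barcodes and the 35 gene lists were chosen with earlier results of these data known. Named genes were the 20 with most UMIs, the 10 highest and 10 lowest ratios at a mean of 100 CPM outside the rule and mitochondrial genes, up to 4 leading members of each list, the 10 with the largest spread, the markers and the rule genes. Members named beyond these, such as Lmod3, Gpi1, Phkg1, Pkm, Ckmt2, Mylk4, Mrln and Cebpd, were picked after their values were seen, as were the pairs of gene forms and the grouping by leading myosin. A gene among the lowest ratios of that grouping is not reported here. Spread is the sum of squared Pearson residuals over barcodes divided by the number of barcodes less 1. Of 80 named genes checked, 34 overlap another annotated gene, 31 of them on the opposite strand. Scripts ran in Python 3.11.15 with numpy 2.4.6, scipy 1.17.1 and pandas 2.3.3, and TMM factors came from edgeR 4.0.16 in R 4.3.3. They were tested on simulated data. Alternatives varied the rule share, both barcode limits, scaling, the CPM limit, the barcodes compared and the depth of thinning.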

Additional observations from a re-analysis of the deposited data

Results flagged for a closer look

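Barcodes below the 500-gene limit entered no comparison above, yet most of those in the QSC library carried fibre transcripts. Of 246 such barcodes, 211 (85.8%, exact 95% interval 80.8 to 89.9) had a rule-gene share of 5% or more, where a count of 0 would allow up to 1.22%. In the ASC library the share was 121 of 163 (74.2%, 66.8 to 80.8). The 211 barcodes had 455 to 1939 UMIs and at least 207 genes each, and summed to 151996 UMIs. Their markers stood close to those of the 104 fibre barcodes, with Tcap at 11711 CPM, Trdn at 1125 CPM, Neb at 441 CPM and Pdk4 at 362 CPM, and their myosin heavy chains were 62.0% Myh1, 31.6% Myh4 and 6.39% Myh2 of 266 UMIs. Of 1868 genes compared, 74 were at least 2-fold higher in the fibre barcodes and 46 lower, with a median log2 ratio of 0.06. Malat1 stood at 750 CPM in the barcodes below the limit, and their mitochondrial share was 2.07% of summed UMIs, against 0.788% in the fibre barcodes. The medians per barcode were 1.16% and 0.719%. No mitochondrial limit was set for the 211 barcodes, whereas the fibre barcodes had one.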

How the results depend on the processing

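No paired analysis was possible because each group has 1 library. Of the main values under the alternatives, 84 stayed within the limits set for them and 32 moved, with 0 turned. Of the list medians 462 stayed, 33 moved and 1 turned. Of the ratios of named genes to fibre ASC barcodes 985 stayed, 295 moved and 4 turned, and of those to other QSC barcodes 1114, 154 and 2. Between barcodes led by Myh4 in both libraries, 38 ratios of named genes stayed, 66 moved and 3 turned. The share of fibre barcodes among kept QSC barcodes was 98.8% at a mitochondrial limit of 1%, 29.3% at 5%, 4.95% at 1000 genes (10 of 202) and 41.8% at 200 genes. At 1%, 1 other QSC barcode was left, so that comparison was not run. Settings that left out barcodes moved values by construction, and for the rest the cause was not tested.

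With a rule share of at least 10%, the medians against other barcodes were 3.32 for fibre markers and 3.26 for slow fibre genes, and the slow fibre median against fibre ASC barcodes turned to 0.58. Under the main rule, 0 of the 4 slow fibre genes compared with other barcodes reached 50 CPM in both groups, so the limit fixed their direction. At the 1% mitochondrial limit, Myh4 held 37.6% and Myh2 4.27% of myosin UMIs, and the medians against fibre ASC barcodes were 0.52 for the thick filament and 1.34 for the mitochondrial genome, with Myl3 turned to -0.034. At 1000 genes, Myh1 held 39.1% and Myh2 29.7%. The medians against other barcodes were then 2.72 for oxidative and lipid fuel, -0.52 for chaperones and -3.13 for immediate-early genes, and against fibre ASC barcodes 354 genes were higher, with medians of 1.15 for oxidative and lipid fuel, 0.18 for fast fibre, 2.05 for immediate-early genes and 1.04 for the mitochondrial genome.

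CPM without the rule genes gave 3.83 for the thin filament, 2.78 for oxidative and lipid fuel and -1.11 for ribosomal proteins against other barcodes, and 0.99 for oxidative and lipid fuel against fibre ASC barcodes. TMM scaling gave 3.77 and 2.68 for the first 2 of these and 0.19 for fast fibre against fibre ASC barcodes. The mean of each barcode's CPM gave 1.21 for the sarcolemma against other barcodes. With a mean of 200 CPM, 271 genes were higher and 216 lower than in other barcodes, and 44 and 81 against fibre ASC barcodes. With no filter these counts were 2269 and 5640, and 5089 and 1682. Against satellite-marker barcodes alone, C1qb and Lyz2 turned to 0.53 and 0.041. Thinning to 1500 UMIs found Neb in 56.3% and Pdk4 in 42.2% of fibre barcodes.

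Alternatives chosen after seeing the data were these. Without the 2 Malat1-rich barcodes the nuclear transcript median against other barcodes was -6.17. In the main comparison 3 of the 4 genes of this list passed only through the other barcodes, so the limit fixed their direction. Without the 5 deepest, Myh1 held 66.4% and Myh2 6.57%. Between barcodes led by Myh4 in both libraries, 273 genes were higher in QSC, and the medians were -0.38 for the Z-disc, 0.046 for phosphate buffering, -0.18 for oxidative and lipid fuel, 0.66 for fasting and atrophy, 0.81 for fast fibre, 1.14 for transcription factors, 0.41 for immediate-early genes, 0.27 for the respiratory chain and 0.46 for the mitochondrial genome. Malat1 turned to -0.26 there. Myh1, at -1.65, is fixed by that grouping. Myl3, at -2.10, had 0 UMIs in QSC, where 3 counts are 49.9 CPM against 35.5 CPM in ASC, so no direction is shown. Between barcodes led by Myh1, 250 genes were higher, and the medians were 2.35 for fibre markers, 0.13 for the thick filament, 0.089 for fast fibre and 1.59 for immediate-early genes. Depth limited the fibre barcodes most: 3 counts are 14.0 CPM in them, 3.17 CPM in other QSC barcodes and 0.998 CPM in fibre ASC barcodes.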
